A study of Mus musculus with 6 samples.

Results

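The tight junction genes described here are 9 genes that encode membrane proteins of the junction and the plaque proteins beneath them: Tjp1, Ocln, Cldn3, Cldn4, Cldn6, Cldn7, F11r, Cgn and Marveld2. They were taken by symbol from a table of 28879 mouse genes, all 9 were found once, and all 9 passed edgeR's filter on low counts. The samples were cultured mouse blastocysts in 2 groups, vitrified–warmed and fresh, with 3 RNA-Seq libraries each. Vitrified–warmed blastocysts had been cooled in liquid nitrogen with a Cryotech kit made for human embryos and then warmed, and fresh blastocysts had not. Both groups came from superovulated C57BL/6JNarl females aged 6 to 8 weeks per the sample labels, although the description of the series names B6CBF1 embryos, and both were grown from zygotes in human tubal fluid medium for 3 days. The labels word both treatments as embryo transfer, whereas the study's methods describe pooled blastocysts as the source of RNA. The embryos of each group were pooled once and the pool was divided into 3 aliquots. The time between warming and lysis is not given for these libraries in the sources used here. The p-values measure the spread between aliquots of 1 pool, and none covers the spread between pools or embryos.

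Tight junctions seal neighboring epithelial cells near their apical side. Claudins form the paracellular strands, occludin and tricellulin are membrane proteins with a MARVEL domain, and JAM-A is an immunoglobulin-type adhesion molecule. ZO-1 and cingulin connect these proteins to actin and to signaling proteins. In the mouse embryo the junctions mature in the trophectoderm, the outer epithelium of the blastocyst, where the seal lets fluid collect in the blastocoel. The inner cell mass does not form such a sealed layer.

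The libraries held 9093411 to 11275436 exon fragments in vitrified–warmed blastocysts and 10788884 to 11843562 in fresh blastocysts. At least 1 fragment was found for 17563 to 17764 genes in vitrified–warmed libraries and for 20086, 15558 and 15991 genes in fresh replicates 1, 2 and 3, so fresh replicate 1 stood apart in detection. Levels are CPM, fragments of a gene scaled to a common library size after TMM normalization, or, where named, FPKM, which also divides by exon length. Of 12 listed trophectoderm markers, 6 were higher, 1 (Cdx2) was lower and 5 did not pass. Of all genes tested, 31.6% were higher and 32.8% lower. The summed level of the 12 markers was 2214 to 2247 CPM in vitrified–warmed libraries against 1990 to 2057 CPM in fresh libraries. Much of that difference lay in Krt18 and Krt8. The median log2 fold change of the 12 markers was 0.116 beside -0.00108 over all genes tested, and a gain across the list was not tested. Krt18 had 623 to 669 and Krt8 409 to 417 CPM in vitrified–warmed libraries, against 526 to 547 and 361 to 376 CPM in fresh. Elf5, also higher, had 29 to 50 fragments per vitrified–warmed library and 2 to 4 per fresh library. For 9 epiblast markers the sums were 859 to 890 and 820 to 854 CPM, in the same order of groups, with 4 higher and 3 lower. For 8 primitive endoderm markers the sums were 372 to 401 and 316 to 326 CPM in that order. Of the 6 tested primitive endoderm markers, 1 was higher, 2 were lower and 3 did not pass. The higher one, Gata6, had 240 ± 17.4 CPM in vitrified–warmed and 168 ± 2.74 CPM in fresh blastocysts (SD, n = 3 each). Summed levels of 9 cumulus markers were 5.51 to 6.63 CPM in vitrified–warmed and 4.43 to 10.3 CPM in fresh libraries. For 9 blood and immune markers they were 15.1 to 20.3 and 4.54 to 5.89 CPM, with all 3 tested markers higher, and for 6 markers of oviduct epithelium 2.75 to 3.70 and 1.33 to 8.37 CPM. None of these markers was at 0 in all 6 libraries, and their part in the results below was not tested.

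Transcripts of 7 of the 9 genes were lower in vitrified–warmed blastocysts, none was higher, and Cldn3 and Cldn6 did not pass the test. The 9 genes were chosen with earlier results of these data known, so this count is a description and not an independent result. The background was high: of 12774 genes tested, 32.8% were lower and 31.6% higher at an adjusted p under 0.05 in edgeR's quasi-likelihood test. The log2 fold changes ran from -0.99 for Marveld2 to 0.19 for Cldn3, with a median of -0.21 beside -0.00108 over all genes tested. Summed over the 9 genes, the level was 673, 680 and 678 CPM in vitrified–warmed libraries and 774, 797 and 816 CPM in fresh libraries. For the same 7 genes, each vitrified–warmed library lay below each fresh library, a pattern found in 35.1% of genes tested. With the thresholds of the study applied to the edgeR p-values (average FPKM over 0.5, p below 0.05 before adjustment, 1.5-fold change or more), 1 of the 9 genes, Marveld2, was called lower and none higher, against 11.6% and 9.17% of genes tested. Without fresh replicate 1, 7 of the 9 genes were again lower. With fresh replicate 3 or vitrified–warmed replicate 1 left out, 5 were lower. The share of all genes called lower was not taken for these fits with a library left out. In bulk RNA, fewer trophectoderm cells and less RNA per cell cannot be told apart.

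**Figure D1:**
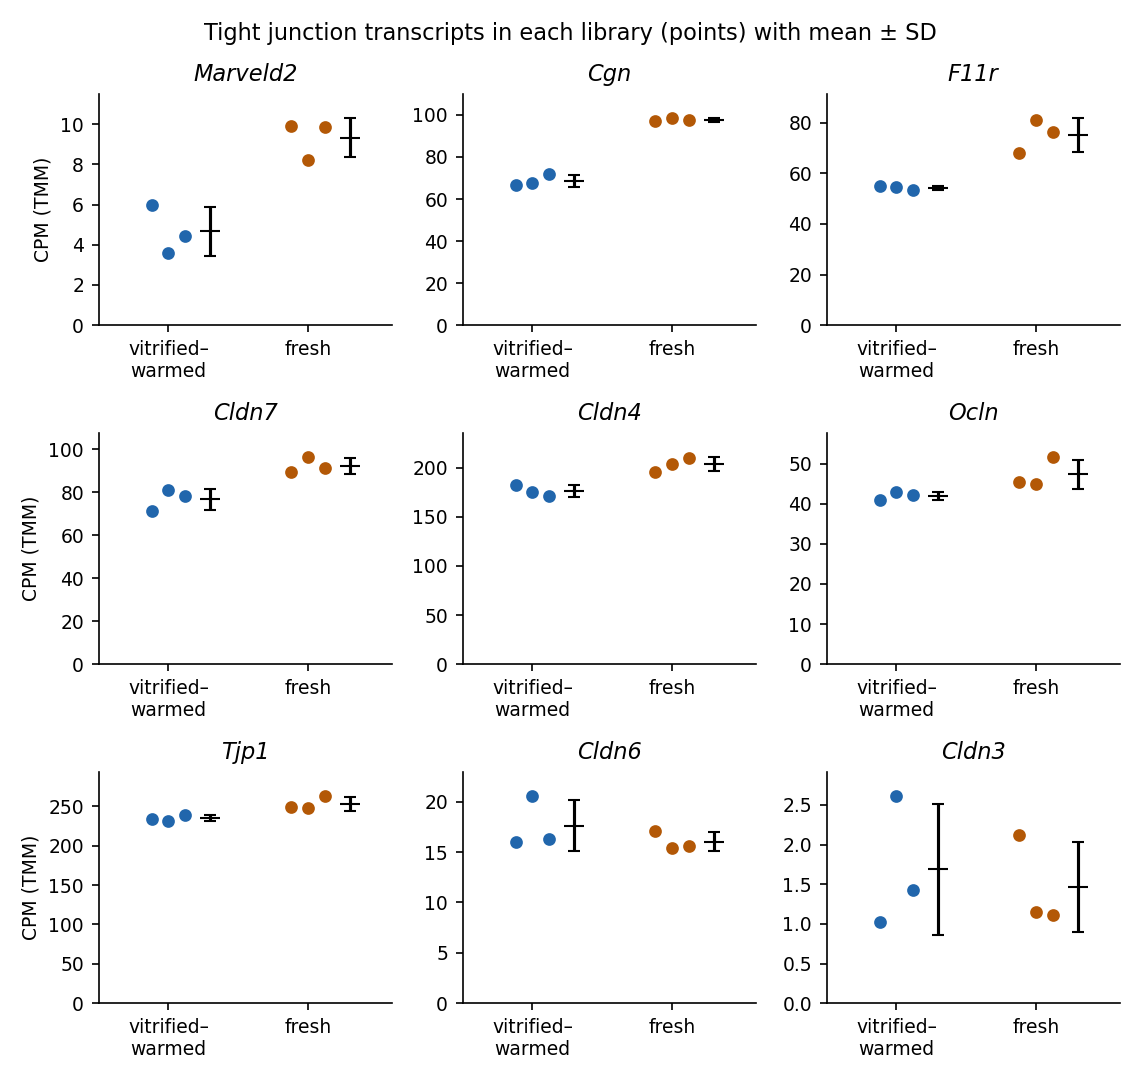
Each panel plots the CPM of 1 gene (vertical axis, from 0) in the 3 vitrified–warmed and the 3 fresh libraries as points, with the mean ± SD beside them. The groups do not overlap for 7 genes and overlap for Cldn6 and Cldn3.

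Per kilobase of exon, Cldn4 was the most abundant of the 9 transcripts and Cldn3 the least, by the group means. In vitrified–warmed blastocysts the levels were 54.2 ± 1.88 FPKM for Cldn4, 29.5 ± 1.74 for Cldn7, 16.5 ± 0.477 for Tjp1, 12.2 ± 0.154 for F11r, 7.34 ± 0.366 for Cgn, 6.45 ± 0.846 for Cldn6, 4.29 ± 0.0796 for Ocln, 0.772 ± 0.205 for Marveld2 and 0.743 ± 0.353 for Cldn3 (FPKM, SD, n = 3). In fresh blastocysts they were 70.6 ± 1.96 FPKM for Cldn4, 40.0 ± 1.20 for Cldn7, 19.96 ± 0.659 for Tjp1, 19.0 ± 1.48 for F11r, 11.7 ± 0.0617 for Cgn, 6.63 ± 0.457 for Cldn6, 5.45 ± 0.417 for Ocln, 1.74 ± 0.191 for Marveld2 and 0.729 ± 0.292 for Cldn3 (FPKM, SD, n = 3). The libraries of Cgn and Cldn6 overlapped in vitrified–warmed blastocysts, as did those of Marveld2 and Cldn3, so their places in the order are not separated there. In fresh blastocysts the libraries of Tjp1 and F11r overlapped. FPKM is compared here between genes of 1 group, because the library totals behind it differ between groups: exon fragments were 54.4% to 56.6% of that total in vitrified–warmed and 63.2% to 63.6% in fresh libraries.

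Both genes for MARVEL proteins among the 9 genes were lower, and Marveld2 had the largest fall of the 9. Marveld2 (chromosome 13, 100595957 to 100616971, GRCm38, minus strand) encodes tricellulin, which seals the points where 3 cells meet. It had 5.97, 3.59 and 4.44 CPM in vitrified–warmed libraries and 9.93, 8.24 and 9.85 CPM in fresh libraries. The highest vitrified–warmed library was below the lowest fresh library, and the level was 49.6% lower (log2 fold change -0.99, standard error 0.19, adjusted p = 2.44e-04 from edgeR). These levels rest on 33 to 64 fragments per vitrified–warmed library and 93 to 115 per fresh library. Ocln, the gene of occludin, lies beside it on chromosome 13 (100496504 to 100553689) on the same strand, with 42267 bases and no other gene of the table between them. Ocln had 41.0, 42.9 and 42.1 CPM in vitrified–warmed libraries and 45.4, 44.9 and 51.6 CPM in fresh libraries. The groups did not overlap, but the gap between 42.9 and 44.9 CPM was narrow, and the fall of 0.17 on the log2 scale only just passed (standard error 0.07, adjusted p = 0.0460 from edgeR). Without fresh replicate 3 its adjusted p was 0.242, without vitrified–warmed replicate 1 it was 0.157, and without vitrified–warmed replicate 3 it was 0.109. Ocln passed under 5 of 15 alternative settings, these left-out libraries included. Its passes include the settings on FPKM, whose scale differs between groups. Outside the 9 genes, Marveld3 had 5.19 ± 1.45 CPM in vitrified–warmed and 4.38 ± 0.422 CPM in fresh blastocysts (SD, n = 3 each) and did not pass the test (adjusted p = 0.387 from edgeR). Marveld1, also of the MARVEL domain genes, was higher (log2 fold change 2.06, standard error 0.61, adjusted p = 0.00877 from edgeR). It rests on 25, 27 and 18 fragments in vitrified–warmed libraries and 14, 2 and 2 in fresh libraries.

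Cgn and F11r followed, with falls between those of Marveld2 and the claudins. Cgn (chromosome 3, 94760069 to 94787724, minus strand) encodes cingulin, a plaque protein that links the junction to actomyosin and to regulators of RhoA. It had 66.5, 67.6 and 71.9 CPM in vitrified–warmed libraries and 96.9, 98.4 and 97.4 CPM in fresh libraries. The fresh libraries lay within 1.5 CPM of each other, far above the other group, and the fall of 29.6% had the smallest adjusted p of the 9 genes (log2 fold change -0.51, standard error 0.05, adjusted p = 6.92e-07 from edgeR). F11r (chromosome 1, 171437561 to 171464593, plus strand) encodes JAM-A, which recruits polarity proteins to new cell contacts. It had 54.8, 54.6 and 53.2 CPM in vitrified–warmed libraries and 68.0, 81.1 and 76.2 CPM in fresh libraries. Here the vitrified–warmed libraries lay close together and the fresh libraries were spread, without overlap, and the level was 27.9% lower (log2 fold change -0.47, standard error 0.07, adjusted p = 1.63e-05 from edgeR). The genes whose pattern over the 6 libraries was most like that of Cgn were Pitpna, Gpbp1l1 and Cct8, with root mean square differences of 0.0175, 0.0262 and 0.0289 in centered log2 CPM among 4474 genes above 5 FPKM. Their log2 fold changes were -0.48, -0.47 and -0.49. Centering over all 6 libraries keeps the difference between groups, so this search mainly finds genes with a similar fall. Shared regulation was not tested.

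Of the 4 claudins, the 2 abundant ones, Cldn4 and Cldn7, fell and Cldn6 and Cldn3 did not pass the test. Cldn4 (chromosome 5, 134945123 to 134946934, minus strand) has a single exon and encodes claudin-4, a target of Clostridium perfringens enterotoxin. Cldn4 had 182, 175 and 171 CPM in vitrified–warmed libraries and 196, 204 and 210 CPM in fresh libraries. The groups were apart by more than 10 CPM and the fall was 13.5% (log2 fold change -0.21, standard error 0.04, adjusted p = 5.67e-04 from edgeR). After a correction for exon length the adjusted p of Cldn4 was 0.0514, with a fall of 0.17 on the log2 scale. Cldn7 (chromosome 11, 69964779 to 69967886, plus strand) encodes claudin-7, which forms a complex with EpCAM in many epithelia. It had 71.4, 81.1 and 78.1 CPM in vitrified–warmed libraries and 89.3, 96.3 and 91.5 CPM in fresh libraries. All 3 vitrified–warmed libraries were lower, by 16.9% on average in the fit (log2 fold change -0.27, standard error 0.06, adjusted p = 7.39e-04 from edgeR).

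Cldn6 (chromosome 17, 23679348 to 23682446, plus strand) encodes claudin-6, a claudin of embryonic epithelia. It had 16.1, 20.5 and 16.3 CPM in vitrified–warmed libraries and 17.1, 15.4 and 15.6 CPM in fresh libraries. Vitrified–warmed replicate 2 was the highest and the other libraries overlapped (log2 fold change 0.13, standard error 0.12, adjusted p = 0.348 from edgeR). Cldn3, which encodes claudin-3, lies 39279 bases from Cldn4 on chromosome 5 (134986214 to 134987476), on the opposite strand and with no gene of the table between. With 11 to 24 fragments per vitrified–warmed library and 13 to 23 per fresh library, it had 1.03, 2.61 and 1.42 CPM in vitrified–warmed and 2.12, 1.15 and 1.11 CPM in fresh libraries. The groups overlapped widely, and a difference was not detectable at this depth (log2 fold change 0.19, standard error 0.45, adjusted p = 0.724 from edgeR). Without vitrified–warmed replicate 2 the log2 fold change of Cldn3 was -0.25.

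Tjp1, the plaque scaffold, changed least among the genes that passed. Tjp1 (chromosome 7, 65296165 to 65527806, minus strand) encodes ZO-1, which binds claudins, occludin and actin. It had 234, 232 and 240 CPM in vitrified–warmed libraries and 249, 248 and 263 CPM in fresh libraries. The groups were separated, but by less than the range within fresh libraries, and the fall was 7.12% (log2 fold change -0.11, standard error 0.04, adjusted p = 0.0275 from edgeR). Without fresh replicate 3 the adjusted p was 0.148 and without vitrified–warmed replicate 1 it was 0.1002. Tjp1 passed under 11 of 15 alternative settings, including those on FPKM, whose scale differs between groups.

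**Figure D2:**
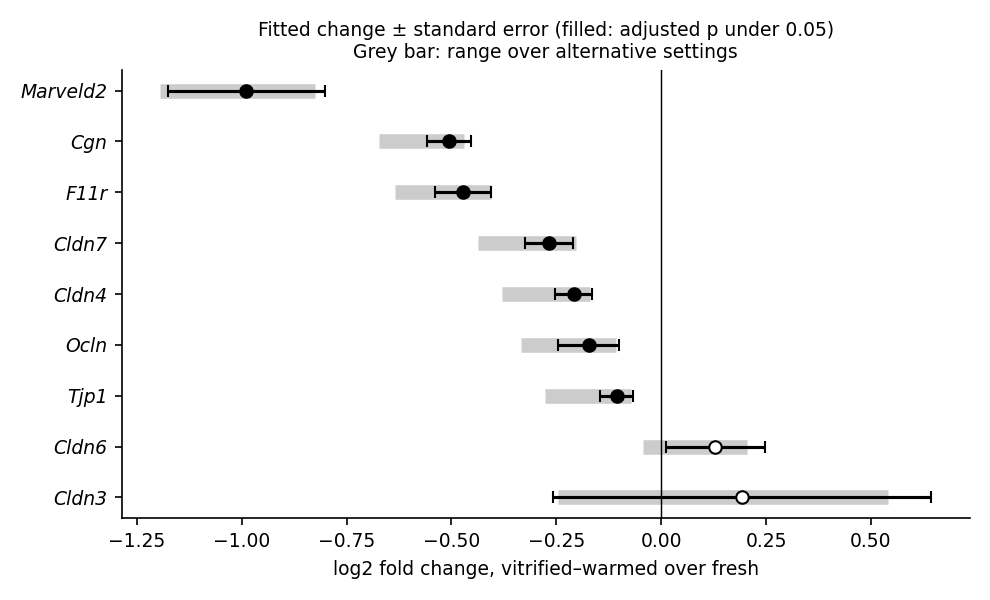
Points give the log2 fold change of each gene (horizontal axis, vitrified–warmed over fresh) with its standard error, filled where the adjusted p was under 0.05, and grey bars the range over alternative settings. The bars stay below 0 for the 7 genes that fell, from Marveld2 at -0.99 to Tjp1 at -0.11, and cross 0 for Cldn6 and Cldn3. The bars include settings on FPKM, whose scale differs between groups, and Cldn6 crosses 0 only under those.

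Cldn4 and Cldn7 gave most of the claudin transcripts in both groups. The table holds 23 claudin genes, of which 6 reached a mean of 0.5 FPKM and passed the filter on low counts. Shares of the summed claudin FPKM were taken within each library, so that the difference in FPKM scale between groups does not enter them. Cldn4 made up 57.4% ± 2.81 of the sum in vitrified–warmed and 58.6% ± 1.48 in fresh blastocysts (SD, n = 3 each, exact permutation test, two-sided p = 0.6). Cldn7 made up 31.2% ± 1.44 and 33.2% ± 1.08 (SD, n = 3 each, exact permutation p = 0.1) in the same order of groups. Cldn6 made up 6.82% ± 0.781 in vitrified–warmed and 5.50% ± 0.381 in fresh blastocysts (SD, n = 3 each, exact permutation p = 0.1). The smallest p that 3 against 3 libraries can give is 0.1, so the shares of Cldn6 and Cldn7 cannot pass 0.05, though their libraries did not overlap.

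Outside these members, Cldn9 and Cldn12 were the tested claudins, and Cldn9 was higher. The list of other claudins also holds genes for claudin-domain proteins. Of its 3 tested genes, 2 were higher and 0 lower, beside 31.6% and 32.8% of all genes tested. Cldn9 lies tail to tail with Cldn6, 137 bases away on the opposite strand, and whether the counting used strand is not given in the sources used here. It had 2.05, 1.74 and 2.31 CPM in vitrified–warmed libraries and 0.736, 0.531 and 0.857 CPM in fresh libraries. All vitrified–warmed libraries were higher (log2 fold change 1.51, standard error 0.42, adjusted p = 0.00539 from edgeR), on 16 to 26 and 6 to 10 fragments per library. Cldn12 had 10.5 ± 1.59 CPM in vitrified–warmed and 8.85 ± 0.786 CPM in fresh blastocysts (SD, n = 3 each) and did not pass (adjusted p = 0.152 from edgeR, or 0.0469 without vitrified–warmed replicate 1). Of the 17 claudin genes that did not pass the filter on low counts, Cldn18 had 25, 7 and 39 fragments in vitrified–warmed libraries and 2, 0 and 0 in fresh libraries, without a test, and was picked out after its values were seen. Cldn8 and Cldn13 had no fragment in any library, which allows up to 0.0460 CPM over the 6 libraries, counting error only. Fragments of 21 of the 23 claudin genes were seen in fresh replicate 1, of 7 and 8 in the other fresh libraries, and of 12 to 14 in vitrified–warmed libraries.

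**Figure D3:**
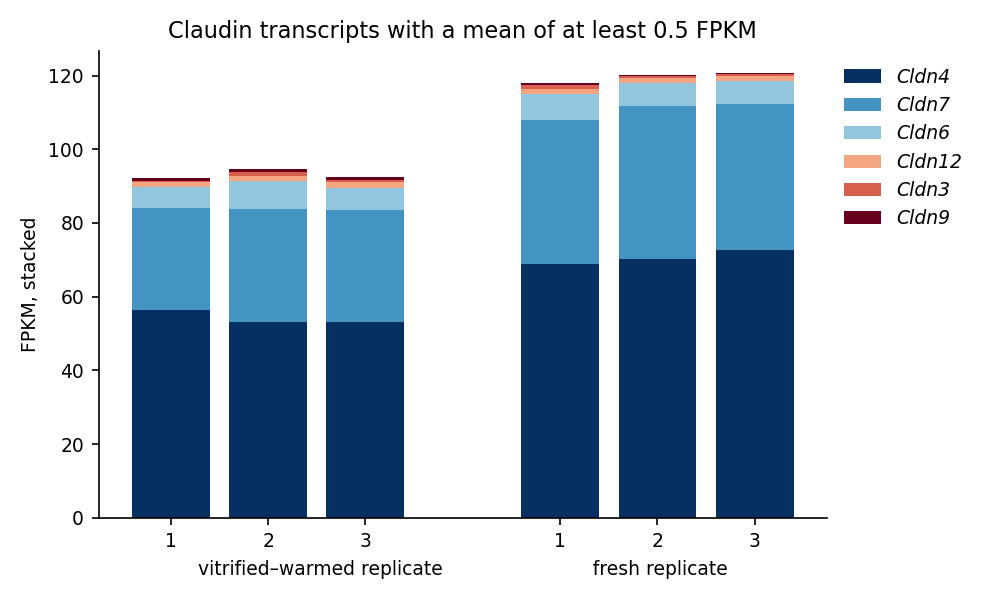
Bars stack the FPKM (vertical axis, from 0) of the 6 claudins with a mean of at least 0.5 FPKM in each vitrified–warmed and fresh library. Cldn4 and Cldn7 fill most of each bar. Bar heights are not comparable between groups, because the FPKM scale differs between them, and the make-up of each bar is what can be read.

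The promoters of 4 of the genes that fell and of Cldn6, which did not pass, are shown so that genes called lower and a gene that did not pass can be compared by their short motifs. Each window runs from 250 bases before to 50 bases after the start of a RefSeq transcript (GRCm38.p6), on the gene's strand. Capitals mark matches to any of 4 motifs searched on both strands: CAGGTG, the E-box that Snail and ZEB repressors bind, GCCNNNGGC for TFAP2 factors, AACNNGTT for GRHL factors and GGAATG for TEAD factors. The windows are chr13:100616922-100617221 (minus strand) for Marveld2, chr3:94786433-94786732 (minus) for Cgn, chr5:134946885-134947184 (minus) for Cldn4, chr11:69965171-69965470 (plus) for Cldn7 and chr17:23679115-23679414 (plus) for Cldn6.
Marveld2: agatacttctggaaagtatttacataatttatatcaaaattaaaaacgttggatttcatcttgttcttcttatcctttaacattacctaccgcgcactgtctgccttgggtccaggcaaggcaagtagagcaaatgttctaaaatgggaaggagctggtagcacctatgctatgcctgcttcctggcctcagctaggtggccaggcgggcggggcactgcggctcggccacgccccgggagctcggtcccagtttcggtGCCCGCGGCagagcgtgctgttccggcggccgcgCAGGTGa
Cgn: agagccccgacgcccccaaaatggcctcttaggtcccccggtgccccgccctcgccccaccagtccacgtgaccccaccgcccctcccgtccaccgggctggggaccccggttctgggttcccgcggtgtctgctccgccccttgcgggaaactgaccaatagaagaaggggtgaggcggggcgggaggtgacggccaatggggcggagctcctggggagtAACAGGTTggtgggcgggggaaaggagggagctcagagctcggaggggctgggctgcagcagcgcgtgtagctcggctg
Cldn4: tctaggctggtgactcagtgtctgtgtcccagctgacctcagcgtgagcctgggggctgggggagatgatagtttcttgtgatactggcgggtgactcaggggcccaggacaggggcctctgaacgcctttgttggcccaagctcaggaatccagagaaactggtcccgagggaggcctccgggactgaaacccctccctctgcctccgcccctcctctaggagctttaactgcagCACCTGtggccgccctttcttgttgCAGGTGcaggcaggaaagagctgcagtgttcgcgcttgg
Cldn7: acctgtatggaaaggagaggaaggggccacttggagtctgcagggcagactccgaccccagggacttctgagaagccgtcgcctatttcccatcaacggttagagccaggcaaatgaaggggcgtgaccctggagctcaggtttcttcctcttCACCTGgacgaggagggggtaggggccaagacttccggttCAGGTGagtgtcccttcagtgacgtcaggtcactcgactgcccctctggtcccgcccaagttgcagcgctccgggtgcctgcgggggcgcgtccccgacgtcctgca
Cldn6: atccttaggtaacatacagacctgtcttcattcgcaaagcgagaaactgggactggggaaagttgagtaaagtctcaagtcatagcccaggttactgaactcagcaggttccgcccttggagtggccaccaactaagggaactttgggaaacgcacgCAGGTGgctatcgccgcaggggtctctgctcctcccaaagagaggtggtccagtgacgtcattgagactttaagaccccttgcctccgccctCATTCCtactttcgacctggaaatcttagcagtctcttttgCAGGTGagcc
All 9 genes had at least 1 window, 12 in all, and the windows of Ocln and of Marveld2 overlap in pairs. CAGGTG or its reverse complement stood in 9 of the 12 windows, beside 20.2% of all 32851 windows, and was present in genes that fell and in Cldn3 and Cldn6. The windows without it belong to Cgn, Tjp1 and the upstream start of Cldn7, whereas the downstream start of Cldn7 is the one shown. The RefSeq starts of Cgn, Tjp1 and Ocln and the downstream start of Cldn7 lie well inside the spans that the table gives these genes. TFAP2 matches stood in 6 of 12 windows (16.6% of all), TEAD matches in 2 (14.7% of all) and a GRHL match in 1 (4.20% of all, Cgn). The TEAD matches were in Cldn6 and in the upstream start of Cldn7, which is not shown. In Cldn3 a TFAP2 match overlaps the E-box. The G and C content of the members' windows was 52.0% to 70.3% beside a median of 52.7% over all windows, and the shares were not corrected for it. A match describes letters only and shows no binding.

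Genes for related or partner proteins of the junction went both ways. Of 76 such genes of the table in 4 lists, 53 passed the filter on low counts, 20 were higher and 17 lower (31.6% and 32.8% of all genes tested), and their median log2 fold change was 0.00568. Among 41 with a mean above 1 FPKM, 14 were higher and 15 lower, and the shares over all genes above that level were not taken. These counts were not tested against those of the 9 genes above.

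Of 17 tested plaque scaffold genes, 7 were higher and 5 lower, beside 31.6% and 32.8% of all genes tested. Inadl, now called Patj, encodes a scaffold of the Crumbs polarity complex and had 28.7, 34.1 and 30.8 CPM in vitrified–warmed libraries and 49.7, 48.9 and 50.7 CPM in fresh libraries. The groups were far apart (log2 fold change -0.68, standard error 0.08, adjusted p = 1.67e-06 from edgeR). Sympk, for symplekin, which is found at junctions and in the nuclear machinery of mRNA 3′ end formation, had a log2 fold change of -0.64, and Amotl2, an angiomotin-like scaffold that binds YAP, of -0.52. Tjp3, for ZO-3, had 18.4, 21.2 and 19.2 CPM in vitrified–warmed libraries and 12.8, 15.9 and 12.9 CPM in fresh libraries. It was higher (log2 fold change 0.49, standard error 0.12, adjusted p = 0.00151 from edgeR), although its span overlaps Apba3 on the opposite strand, at 5.71 FPKM and a log2 fold change of 0.32.

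Close relatives of members did not all share their direction. Cgnl1, for the cingulin paralog paracingulin, had 69.1 ± 4.93 CPM in vitrified–warmed and 52.8 ± 2.99 CPM in fresh blastocysts (SD, n = 3 each, log2 fold change 0.38, adjusted p = 1.21e-04 from edgeR). Jam2, for JAM-B, had 10.01 ± 0.559 and 9.45 ± 0.724 CPM (SD, n = 3 each) in that order and did not pass (adjusted p = 0.619 from edgeR). Jam3, for JAM-C, was lower at 0.816 ± 0.389 CPM in vitrified–warmed against 2.44 ± 0.728 CPM in fresh blastocysts (SD, n = 3 each, log2 fold change -1.54, adjusted p = 0.00644 from edgeR). A ratio of 2 genes within a library does not depend on library scaling, and 7 such ratios were compared, chosen after the values were seen. The ratio of Cgnl1 to Cgn in FPKM was 0.697 ± 0.0735 in vitrified–warmed and 0.374 ± 0.0220 in fresh blastocysts (SD, n = 3 each, exact permutation p = 0.1, the smallest possible, adjusted over 7 ratios 0.1). The ratio of Tjp3 to Tjp1 was 0.199 ± 0.0166 and 0.131 ± 0.0196, that of Jam2 to F11r 0.0879 ± 0.00472 and 0.0599 ± 0.00111, and that of Marveld2 to Ocln 0.180 ± 0.0510 and 0.319 ± 0.0299, each for vitrified–warmed and then fresh blastocysts (SD, n = 3 each, exact permutation p = 0.1). The groups did not overlap in any of these 4 ratios. Cgnl1 and Tjp3 were higher and Cgn and Tjp1 lower, each without overlap, so the ratios of Cgnl1 to Cgn and Tjp3 to Tjp1 had to separate the groups. All 7 ratios were picked from seen values, so their p-values are no independent result. Within the claudins, Cldn6 to Cldn4 was 0.119 ± 0.0183 and 0.0940 ± 0.00862, Cldn6 to Cldn7 was 0.218 ± 0.0218 and 0.166 ± 0.0154, and Cldn9 to Cldn6 was 0.125 ± 0.0316 and 0.0466 ± 0.0108 (SD, n = 3 each, exact permutation p = 0.1).

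Of 22 tested genes for polarity kinases and GTPase regulators, 8 were higher and 10 lower, beside 31.6% and 32.8% of all genes tested. Pard6a, an adaptor of the atypical PKC polarity complex, had 0.280, 0.869 and 0.533 CPM in vitrified–warmed libraries and 7.82, 5.49 and 4.63 CPM in fresh libraries. The fall was steep (log2 fold change -3.42, standard error 0.37, adjusted p = 1.16e-06 from edgeR), on 3 to 8 fragments per vitrified–warmed library. Its paralog Pard6b, at 72.4 ± 4.89 CPM in vitrified–warmed and 50.5 ± 2.21 CPM in fresh blastocysts (SD, n = 3 each), was higher (log2 fold change 0.52, adjusted p = 4.57e-06 from edgeR). Pard3, a scaffold that binds JAM-A, and Prkci, an atypical PKC, were lower with log2 fold changes of -0.37 and -0.22. Arhgef18, an activator of RhoA at junctions, and Rab13, which carries occludin to the membrane, had log2 fold changes of -0.85 and -1.14, and Arhgap17, which acts on Cdc42 at junctions, had 0.94.

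Of 11 tested genes for other junction membrane proteins, 3 were higher and 2 lower, beside 31.6% and 32.8% of all genes tested. Among the 3 higher was Marveld1, given above. Cxadr, the coxsackievirus and adenovirus receptor of the junction, had 138 ± 6.95 CPM in vitrified–warmed and 160 ± 3.64 CPM in fresh blastocysts (SD, n = 3 each), and was lower by 0.21 on the log2 scale. Of 12 transcription factors of epithelia and trophectoderm, 6 were higher and 2 lower, beside 31.6% and 32.8% of all genes tested. Tfap2c, Tfap2a, Grhl2 and Klf5 had log2 fold changes of 0.58, 0.49, 0.42 and 0.34, all past the test, and for each of these 4 genes the vitrified–warmed libraries lay above the fresh libraries. The 2 lower factors, added after their values were seen, were Grhl1 and Cdx2. Grhl1, a paralog of Grhl2, had 1.96, 2.72 and 2.84 CPM in vitrified–warmed libraries and 7.26, 9.30 and 6.597 CPM in fresh libraries. The groups did not overlap, and this was the largest change of the list (log2 fold change -1.62, standard error 0.22, adjusted p = 1.20e-05 from edgeR). Cdx2, a regulator of trophectoderm fate, had 134 ± 10.9 CPM in vitrified–warmed and 150.2 ± 7.53 CPM in fresh blastocysts (SD, n = 3 each), with overlap (log2 fold change -0.17, adjusted p = 0.0170 from edgeR). The adjusted p of Cdx2 was 0.101 without fresh replicate 2, 0.118 without vitrified–warmed replicate 1 and 0.135 without vitrified–warmed replicate 3. In edgeR it was also 0.275 after the correction for exon length and 0.0653 with calibration to 12 housekeeping genes. Tfap2c and Cdx2 are also among the trophectoderm markers. Grhl2, which activates junction genes in epithelia, had 84.7 ± 2.80 CPM in vitrified–warmed and 63.2 ± 2.92 CPM in fresh blastocysts (SD, n = 3 each, adjusted p = 9.16e-06 from edgeR).

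**Figure D4:**
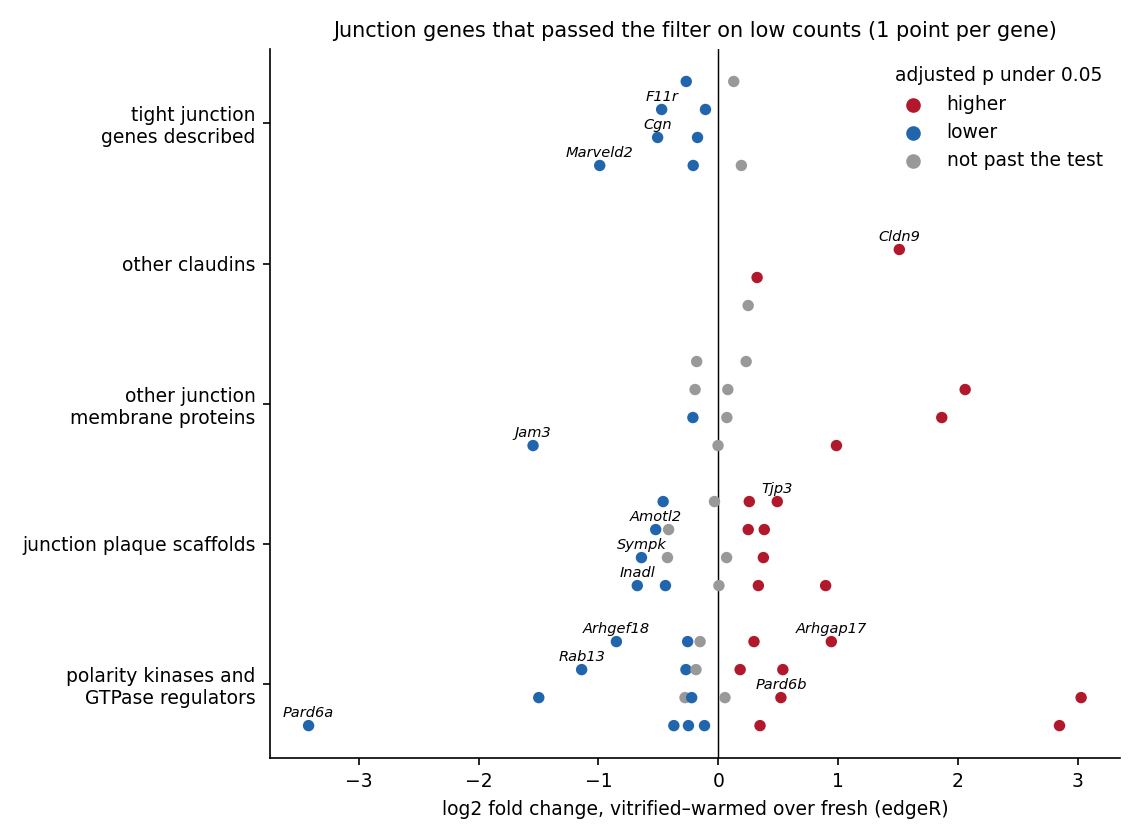
Each point is 1 tested gene placed by its log2 fold change (horizontal axis, vitrified–warmed over fresh) within its list, colored by whether it was higher, lower or not past an adjusted p of 0.05. The 9 genes in the top row lie between -0.99 and 0.19, with 7 lower, whereas the plaque scaffold and polarity lists spread to both sides. The 9 genes were chosen with earlier results of these data known, and the rows were not tested against each other.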

How the data were processed

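RNA from 6 libraries, 3 aliquots of 1 pool per group, was prepared by the authors with the Ovation SoLo kit and sequenced as paired ends. Trimming, alignment to GRCm38 (mm10) and counting of exon fragments per gene were done by the authors in CLC Genomics Workbench. The deposited counts are whole and not normalized. The deposited FPKM values divide them by exon length and by a library total larger than the sum of exon fragments, so that they differ in scale between groups. Strand setting and annotation release are not given in the sources used here. The table has 8 empty rows, which were left out. Its columns of the authors' fold changes, p-values and means were not used. Columns were matched to libraries by the group and replicate number in their names.

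Counts were filtered (filterByExpr), normalized (TMM) and tested with edgeR 4.0.16 (robust quasi-likelihood) under R 4.3.3. Adjusted p-values are Benjamini–Hochberg values across 12774 genes. The steps were tested on simulated data. Single ratios and shares were compared by a two-sided exact permutation test (scipy 1.17.1). Replicates of a group differed by more than sampling noise, with chi-square values of 1.55 to 4.63 per degree of freedom. All 9 genes were named. From each related list, the 4 or fewer genes of largest change that passed edgeR, averaged over 1 FPKM and showed no overlap of CPM were named, as were claudins of at least 0.5 FPKM and the 3 genes most like the member of smallest adjusted p. Of the genes this rule names, 1 is not reported here, nor are 1 further gene and its ratio to a member. Cgnl1, Jam2, Jam3, Marveld1, Marveld3, Pard3, Pard6b, Prkci, Grhl1, Cdx2 and Cldn18 were chosen after their values were seen. So were the single markers Gata6, Krt18, Krt8 and Elf5. The members and lists were chosen with earlier results of these data known.

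Alternatives were DESeq2 1.42.0, library sizes without TMM, calibration to 12 housekeeping genes, no filter on low counts, a mean above 1 FPKM, limma 3.58.1 on log2(FPKM + 0.5) or log2(FPKM + 0.1), a replicate block, a correction for exon length, the study's thresholds and each library left out in turn.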

Additional observations from a re-analysis of the deposited data

How the results depend on the processing

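Marveld2, Cgn, F11r and Cldn7 were lower past the test under all 15 alternatives run for single genes, with log2 fold changes from -1.19 to -0.82, -0.67 to -0.47, -0.63 to -0.40 and -0.44 to -0.20. The lower ends for Cgn, F11r and Cldn7 and the upper end for Marveld2 came from limma on FPKM, whose scale differs between groups. Cldn4 was lower under all 15 and past the test in 14 of them. Ocln kept its direction but was past the test in 5 of 15, and Tjp1 in 11 of 15. Both limma settings on FPKM are among these passes. With each library left out in turn, 5 to 7 of the 9 genes were lower and none was higher, and their median log2 fold change was -0.25 to -0.17. Calibration to 12 housekeeping genes and the correction for exon length each left 5 of the 9 genes lower. A mean above 1 FPKM kept 8 of the genes, with 5 lower. DESeq2, library sizes without TMM and no filter on low counts each gave 6 lower, and both limma settings gave 7. The share of all genes called lower was taken only for the main fit (32.8%) and the study's thresholds (11.6%). Under limma on log2(FPKM + 0.5) and log2(FPKM + 0.1), 15 related junction genes were higher in each, and 23 and 22 were lower. Without a replicate, the numbers of related junction genes were 19 to 21 higher and 17 lower. With the replicate block 6 of the 9 genes were lower, as Ocln had an adjusted p of 0.0533. The numbers were not shown to pair the libraries, since the deviations of same-numbered libraries had correlations of -0.16, 0.07 and -0.11 across genes. At the study's thresholds 1 of the 9 genes was lower, and 4 related junction genes were higher and 6 lower. These thresholds change the fold, the FPKM minimum and the p-value together, and their separate parts were not tested. With limma on log2(FPKM + 0.5) and log2(FPKM + 0.1) the members' median was -0.38 and -0.38, relative to medians over all genes of -0.13 and -0.16 on this unscaled measure. There Cldn6 was at -0.0403 and -0.0430, Cldn3 at -0.0033 with the pseudocount of 0.1, and Jam2 at -0.0599 and -0.0795. With each library left out in turn the log2 fold change of Cldn3 was from -0.25 (without vitrified–warmed replicate 2) to 0.54 (without fresh replicate 1). The cause of these changes was not tested. The share of Cldn4 differed by -2.74 to -0.0587 percentage points with libraries left out, that of Cldn6 by 0.870 to 1.56 and that of Cldn7 by -2.43 to -1.12. Of the 7 ratios, with libraries left out as an alternative chosen after seeing the data, none changed direction. Depth limits Cldn3 and Cldn9, with at most 26 fragments per library. It also limits genes with few fragments per vitrified–warmed library: Pard6a with 3 to 8, Jam3 with 4 to 13, Rab13 with 15 to 20 and Grhl1 with 21 to 32.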
